A study of Mus musculus with 16 samples.

Results

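The annexins Anxa1, Anxa2, Anxa3, Anxa4, Anxa5, Anxa6, Anxa7 and Anxa11 and the formyl peptide receptors Fpr1 and Fpr2 were followed in mouse bone marrow derived mast cells (BMMCs). Members were found by matching Ensembl gene identifiers to these symbols, which gave 10 genes of the 39179 in the count files. The matching rule uses no measured value, while the family itself was picked with earlier results of these data known. BMMCs were grown for 4 weeks with stem cell factor and IL3 from the marrow of male C57BL/6 mice aged 8 to 10 weeks. They came from mice that were either wild type (PEP+/+) or null for the PEST-domain-enriched tyrosine phosphatase, the product of Ptpn22 (PEP-/-). All cells of both genotypes were sensitized for 3 h with IgE (0.05 µg/ml by the labels, a higher concentration by the study's methods), which was the whole treatment in the group called IgE. In the group IgE DNP, 1 h of antigen followed, with dinitrophenol (DNP) at 200 ng/ml. By the study's methods it was given bound to bovine serum albumin. The group IgE DEX was treated with the glucocorticoid dexamethasone (DEX, 100 nM) for 8 h, and IgE DNP DEX received both agents. Each of the 8 conditions had 2 replicates, 16 samples in all. The study calls them biological replicates, and whether they came from separate mice or separate cultures of the same marrow is not given in the sources used here, so p-values measure the spread between these samples.

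Annexins are cytosolic proteins that bind acidic phospholipids of membranes when calcium rises. Anxa1 (annexin A1, formerly lipocortin) is the member known as a mediator of glucocorticoids: it is released or moved to the cell surface, it acts through Fpr2, and it and its peptides limit the release of mediators from mast cells and the recruitment of neutrophils. Fpr1 is the high-affinity receptor for bacterial formylated peptides and is best known from neutrophils. The remaining members serve other functions: Anxa2 forms a complex with the S100 protein S100a10, Anxa5 binds exposed phosphatidylserine, and Anxa6 carries a doubled annexin core and organises membrane and cholesterol traffic. Anxa7 takes part in membrane fusion, and Anxa11 binds the calcium sensor Pdcd6 and RNA granules.

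Of the 10 members, 9 had at least 1 read in some sample and 8 passed the filter on low counts, which kept 13305 genes. The 2 that did not pass were the receptors. Library totals on genes ranged from 8612531 to 22143526 reads, and intervals of log2 changes cover the spread between samples as the fit estimates it. The 9 mast cell markers were all present, with summed levels between 63100 and 104000 CPM (the reads of a gene scaled to the size of its library). Their sum moved with treatment, from 63100 to 72200 CPM after IgE to 80500 to 104000 after IgE DNP DEX. Cpa3, the highest of the 9, had means of 35400 CPM (SD 5270, n = 4) and 51400 CPM (SD 7480, n = 4) there. Of the 9, Hdc was called higher on the log2 scale with DEX (2.22 in sensitized and 1.21 in activated cells). It was also called higher with DNP (3.12 without and 2.12 under DEX). Ptpn22 had 130 to 2799 reads in PEP+/+ samples and 0 to 55 in PEP-/- samples. Neutrophil markers summed to 2.31 to 4.46 CPM with Camp at 0, and macrophage and monocyte markers to 5.8 to 18.1 CPM with C1qa at 0 (of 4 tested, Cd14 was called higher with DNP). Stromal markers summed to at most 0.113 CPM with Col1a2 at 0. In bulk RNA, fewer cells of a type and less RNA per cell cannot be told apart.

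The receptors were at or near 0. Fpr2 (chromosome 17, 17887824 to 17893952, plus strand, GRCm38) had 0 reads in all 16 samples, of 219542333 reads on genes, which allows a level of up to 0.01366 CPM for the pooled libraries (3 counts, for counting error only). Fpr1 (chromosome 17, 17876471 to 17883940, minus strand) had 2 reads in all. One lay in the PEP+/+ IgE DNP DEX replicate 1 sample (0.13 CPM) and the other in PEP-/- IgE replicate 2 (0.0514 CPM). In the same samples Anxa1, which encodes the ligand, had 490 to 4439 reads. Fpr2 shares 48 bases of exon on the same strand with Fpr3, where a read cannot be given to one gene alone, and Fpr3 too was at 0 in every sample. The remaining formyl peptide receptor genes Fpr-rs3, Fpr-rs4, Fpr-rs6 and Fpr-rs7 were also at 0 in every sample. Reads aligned to several places count on no gene, so a read that matched several of these receptor genes would be missing here. None of the 4 further genes for agonists of Fpr2 (Camp, Saa1, Saa2, Saa3) passed the filter, and the highest of them, Saa3, had at most 12 reads in a sample.

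Levels of different annexins were compared per length, as RPKM, which is CPM divided by the length in kilobases of the union of a gene's exons. Anxa5 was highest, with a median of 290 RPKM over the 16 samples (147 to 535), followed by Anxa6 with 102 (75.9 to 185) and Anxa1 with 51.4 (17.1 to 119). Anxa7 had a median of 20.1 RPKM (15.9 to 27.6), Anxa11 of 17.8 (7.36 to 29.5) and Anxa4 of 13 (8.34 to 17.7). Ranges over all treatments overlapped between neighbours from Anxa5 down to Anxa4, but within samples Anxa5 was above Anxa6 and Anxa1 above Anxa7 in 16 of 16. Anxa6 was above Anxa1 in 14 of 16, the exceptions being replicate 1 of IgE DNP DEX in both genotypes. In that treatment the means were 101 RPKM (SD 15.4, n = 2) for Anxa1 against 97.3 (SD 8.94) for Anxa6 in PEP+/+ and 97.6 (SD 30.7) against 89.5 (SD 8.94) in PEP-/- cells, differences within the spread. Anxa7 was above Anxa11 in 11 of 16 samples and Anxa11 above Anxa4 in 12 of 16, so the order of these 3 was not separated. Anxa2 lay below all of them at 1.5 RPKM (0.327 to 3.25), with no overlap, and Anxa3 was lowest at 0.116 (0.0215 to 0.357). Anxa2 rested on 12 to 151 reads per sample and Anxa3 on 1 to 15. With the longest transcript as the length, the medians were 297 RPKM for Anxa5, 121 for Anxa6, 89.4 for Anxa1, 41.6 for Anxa7, 27 for Anxa11, 23.1 for Anxa4, 2.45 for Anxa2 and 0.266 for Anxa3, in the same order. Among the genes tested, the median level per length of Anxa5 lay at percentile 98.9, that of Anxa1 at 93.5 and that of Anxa3 at 3.59. Of the remaining annexins, Anxa8, Anxa10 and Anxa13 were at 0 in every sample and Anxa9 had 1.84 to 6.6 CPM.

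**Figure D1:**
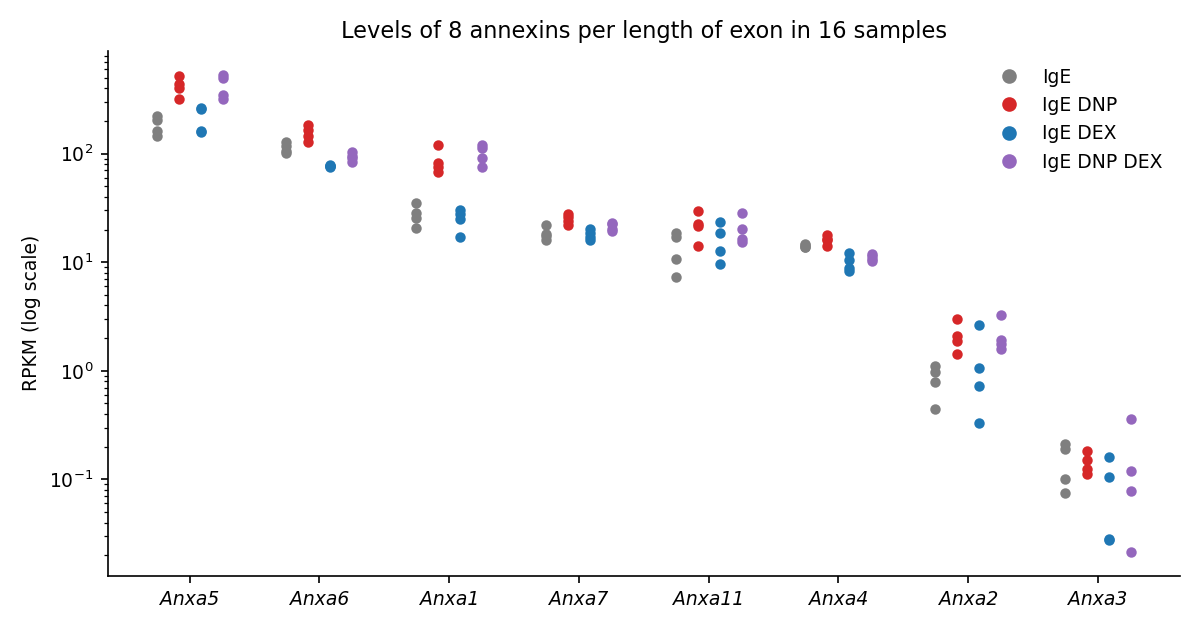
Level of each annexin (log axis, RPKM over the union of exons) in the 16 samples, 4 points per treatment with both genotypes together. Anxa5 sits highest with 147 to 535 RPKM and Anxa3 lowest with 0.0215 to 0.357; Fpr1 and Fpr2, with 0 or 1 read per sample, are not drawn.

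The promoter windows of the members that the treatments changed most, and of Anxa2, are shown for what stands near each start site. RefSeq windows on GRCm38.p6, from 250 bases before to 50 bases after a start, were matched for 8 of the 10 members, and Anxa3 and Anxa6 were not matched. The windows were searched on both strands for the glucocorticoid half-site AGAACA, its palindrome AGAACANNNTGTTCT (which holds the half-site), the AP-1 site TGANTCA, the cyclic AMP response element TGACGTCA, the CArG box and the NF-kB site, and on the gene's strand for the TATA box TATAAA. Capitals mark matches, and each window is written 5′ to 3′ on the strand of its gene. They are Anxa1 at chr19:20390622-20390921 (minus strand), Anxa2 at chr9:69453433-69453732 (plus strand), Anxa5 at chr3:36475838-36476137 (minus strand), and Anxa4 from its upstream start at chr6:86793535-86793834 and its downstream start at chr6:86775065-86775364 (minus strand).
Anxa1: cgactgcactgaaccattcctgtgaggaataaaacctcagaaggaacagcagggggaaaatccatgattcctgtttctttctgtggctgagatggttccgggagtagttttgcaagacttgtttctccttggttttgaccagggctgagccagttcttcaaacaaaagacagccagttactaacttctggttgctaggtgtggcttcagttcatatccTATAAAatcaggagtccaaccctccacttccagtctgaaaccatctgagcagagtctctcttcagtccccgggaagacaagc
Anxa2: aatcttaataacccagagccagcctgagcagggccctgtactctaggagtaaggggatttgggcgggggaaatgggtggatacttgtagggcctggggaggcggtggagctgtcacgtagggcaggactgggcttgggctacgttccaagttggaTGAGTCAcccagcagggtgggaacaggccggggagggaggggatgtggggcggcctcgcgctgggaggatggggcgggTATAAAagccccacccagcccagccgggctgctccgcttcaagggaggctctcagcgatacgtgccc
Anxa5: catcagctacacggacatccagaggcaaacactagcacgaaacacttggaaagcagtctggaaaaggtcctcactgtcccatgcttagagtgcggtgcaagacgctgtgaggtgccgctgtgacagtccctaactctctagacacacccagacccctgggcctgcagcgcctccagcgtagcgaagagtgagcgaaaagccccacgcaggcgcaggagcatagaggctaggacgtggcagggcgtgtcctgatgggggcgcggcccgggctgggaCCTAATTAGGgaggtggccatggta
Anxa4, upstream start: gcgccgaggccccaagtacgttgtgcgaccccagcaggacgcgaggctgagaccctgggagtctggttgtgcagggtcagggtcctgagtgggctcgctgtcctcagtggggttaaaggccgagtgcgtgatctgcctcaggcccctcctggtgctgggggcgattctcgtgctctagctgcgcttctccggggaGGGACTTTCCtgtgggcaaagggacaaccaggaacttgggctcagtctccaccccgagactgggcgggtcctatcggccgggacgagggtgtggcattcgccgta
Anxa4, downstream start: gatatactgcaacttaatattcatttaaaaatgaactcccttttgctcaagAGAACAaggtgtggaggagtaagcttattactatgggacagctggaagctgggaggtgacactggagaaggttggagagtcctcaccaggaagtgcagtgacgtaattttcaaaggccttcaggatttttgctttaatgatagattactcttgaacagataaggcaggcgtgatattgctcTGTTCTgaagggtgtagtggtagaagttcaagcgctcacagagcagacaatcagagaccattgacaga

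The Anxa1 window held a TATA box beginning 32 bases before the start and no match to the half-site, the AP-1 site or the response element. Of all 32851 windows, 8.32% held the TATA letters. The Anxa2 window held an AP-1 site beginning 95 bases before the start (7.81% of all windows) and TATA letters 17 bases before it. Anxa5 held a CArG box, the element of serum response factor, from base 26 to base 35 after the start (1.63% of windows). Anxa4 held an NF-kB site at its upstream start (8.46% of windows) and 2 half-sites at its downstream start (19% of windows held at least 1). Among the remaining members, Fpr1 held a half-site and TATA letters and Fpr2 held TATA letters. The palindrome was in 0.00913% of windows and the cyclic AMP response element in 1.79%, and neither was in a member's window. A match is a description of these letters only.

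Activation by DNP raised Anxa1 in both genotypes, and its fitted change was the largest of the 8 members tested, though members were not tested against each other. In PEP+/+ cells Anxa1 (chromosome 19, 20373428 to 20390944) stood at 74.3 and 82.6 CPM after IgE (replicates 1 and 2) and at 198 and 240 CPM after IgE DNP. In PEP-/- cells it stood at 101 and 60.5 CPM after IgE and at 348 and 220 CPM after IgE DNP. The 4 activated samples all lay above the 4 sensitized ones, with no overlap. With both genotypes averaged, Anxa1 rose by 1.65 on the log2 scale (SE 0.25, 95% interval 1.10 to 2.19, 3.13-fold; edgeR quasi-likelihood test, Benjamini-Hochberg adjusted p = 0.000924, 4 samples against 4). Within same-numbered samples the fold was 2.66 and 2.90 in PEP+/+ and 3.43 and 3.62 in PEP-/- cells, higher in 4 of 4. The call held in each genotype alone, with 1.48 in PEP+/+ (adjusted p = 0.0309) and 1.81 in PEP-/- (adjusted p = 0.00941), 2 samples against 2. Within 1 genotype the call needed all the libraries compared in PEP+/+, where it was lost without any of the 4 (adjusted p from 0.0734 to 0.192). In PEP-/- it was lost without IgE DNP replicate 1 (1.44, adjusted p = 0.0663) or IgE replicate 2 (1.48, adjusted p = 0.123).

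Of the 8 members tested, 4 rose with DNP in the absence of DEX and 0 fell. At an unadjusted p under 0.05, 5 members rose, where 3646 of the 13305 genes tested passed in either direction. DESeq2 called 5 members. Over all genes, 9.07% were called higher and 7.58% lower by edgeR after adjustment in that comparison. Beside Anxa1, the 3 others were Anxa5, Anxa6 and Anxa7, and the median log2 change of the 8 members was 0.57 against 0.00 for all genes. Anxa5 (chromosome 3, 36448923 to 36475894) had 360 and 261 CPM after IgE and 776 and 569 after IgE DNP in PEP+/+ cells. In PEP-/- cells it had 399 and 289 CPM after IgE and 926 and 711 after IgE DNP. No activated sample overlapped a sensitized one, and replicate 1 was above replicate 2 in each condition. The change of Anxa5 was 1.18 (SE 0.26, 2.27-fold, edgeR adjusted p = 0.00925), and without PEP-/- IgE replicate 2 it was 1.08 with an adjusted p = 0.0503. In single genotypes Anxa5 gave 1.11 (adjusted p = 0.12) in PEP+/+ and 1.25 (adjusted p = 0.0677) in PEP-/- cells, and with the replicate set as a block both passed, at adjusted p = 2.74e-05 and 7.12e-06.

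Anxa6 and Anxa7 rose by less. Anxa6 had 297, 344, 309 and 377 CPM after IgE and 379, 484, 421 and 543 after IgE DNP (PEP+/+ replicates 1 and 2, then PEP-/- replicates 1 and 2). The lowest activated sample stood just above the highest sensitized one. Its change was 0.46 (SE 0.14, 1.38-fold, edgeR adjusted p = 0.0434), a call that was lost without any of 12 of the 16 libraries, with values from 0.36 to 0.53 over all 16 and an adjusted p of up to 0.195. It held only when the library left out was PEP+/+ IgE DNP replicate 1, PEP-/- IgE DNP replicate 1 or either PEP+/+ IgE DNP DEX sample. Anxa7 had 109, 96.3, 131 and 105 CPM after IgE and 132, 144, 158 and 165 after IgE DNP. Here too the groups did not overlap. Its change was 0.44 (SE 0.13, 1.36-fold, edgeR adjusted p = 0.0344), and the call was lost without any of the 8 libraries compared except PEP-/- IgE replicate 1 (0.36 to 0.53 over the 16, adjusted p of up to 0.153). With the replicate set as a block, Anxa6 and Anxa7 were called with adjusted p = 0.00151 and 0.00146.

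Anxa2, Anxa11, Anxa4 and Anxa3 did not pass in the fit without the block. Anxa2 had 3.67, 2.95, 4.1 and 1.65 CPM after IgE and 11.1, 7.09, 7.79 and 5.28 after IgE DNP, in the same order of samples. All 4 activated values lay above all 4 sensitized ones, and the change was 1.33 (SE 0.48, edgeR adjusted p = 0.0877). With the replicate set as a block it was 1.37 with an adjusted p = 0.000625. Anxa11 gave 0.69 (SE 0.35, adjusted p = 0.245) without and 0.74 (adjusted p = 0.000326) with the block. Anxa11 had 70.9, 30.4, 76.6 and 44.4 CPM after IgE against 92.3, 58.3, 122 and 89.4 after IgE DNP, groups that overlapped because the replicate sets differed. The block raised the count from 4 to 6 of 8 members higher, where 37.9% of all genes were called in either direction. Anxa4 gave 0.17 (95% interval -0.07 to 0.41) and Anxa3 -0.04 (-1.19 to 1.12).

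Under DEX, DNP raised Anxa1 again. In PEP+/+ cells Anxa1 had 81.2 and 72.6 CPM with IgE DEX against 327 and 263 CPM once antigen was added. In PEP-/- cells it had 88.6 and 49.8 CPM against 347 and 221 CPM. All 4 activated samples exceeded all 4 others. The change was 1.99 (SE 0.25, 95% interval 1.43 to 2.54, 3.96-fold, edgeR adjusted p = 0.000431), with 1.94 in PEP+/+ (adjusted p = 0.0117) and 2.03 in PEP-/- cells (adjusted p = 0.00892). In PEP+/+ cells that call was lost without IgE DEX replicate 1 (2.03, adjusted p = 0.0755), IgE DEX replicate 2 (1.86, adjusted p = 0.15) or IgE DNP DEX replicate 1 (1.79, adjusted p = 0.0689), and in PEP-/- cells without IgE DEX replicate 2 (1.68, adjusted p = 0.122). Anxa5 was the other member called, with 461, 289, 463 and 281 CPM after IgE DEX and 951, 615, 891 and 566 after IgE DNP DEX (PEP+/+, then PEP-/-). Its change was 1.02 (SE 0.26, 2.02-fold, edgeR adjusted p = 0.0262). The Anxa5 call was lost without PEP+/+ IgE DNP DEX replicate 1 (0.87, adjusted p = 0.0882), PEP-/- IgE DNP DEX replicate 1 (0.86, adjusted p = 0.0725), PEP+/+ IgE DEX replicate 2 (0.86, adjusted p = 0.111) or PEP-/- IgE DEX replicate 2 (0.85, adjusted p = 0.103).

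Under DEX, then, 2 of the 8 members were called higher and 0 lower, where 7.19% of all genes were higher and 5.42% lower. With the block 6 of 8 were called higher, the added ones being Anxa2 (1.04, adjusted p = 0.0045), Anxa6 (0.27, adjusted p = 0.0388), Anxa7 (0.25, adjusted p = 0.0478) and Anxa11 (0.36, adjusted p = 0.034), where 37.6% of all genes were called. The shares of all genes called within 1 genotype, in either direction, were 5.9% (PEP+/+) and 7.22% (PEP-/-) for DNP without DEX and 3.84% and 3.98% under DEX. Anxa1 was the only member called in these 4 comparisons within a genotype without the block. The size of the DNP change with and without DEX was compared directly by an interaction. For Anxa1 the change under DEX was larger by 0.34 (95% interval -0.42 to 1.10, edgeR adjusted p = 1).

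**Figure D2:**
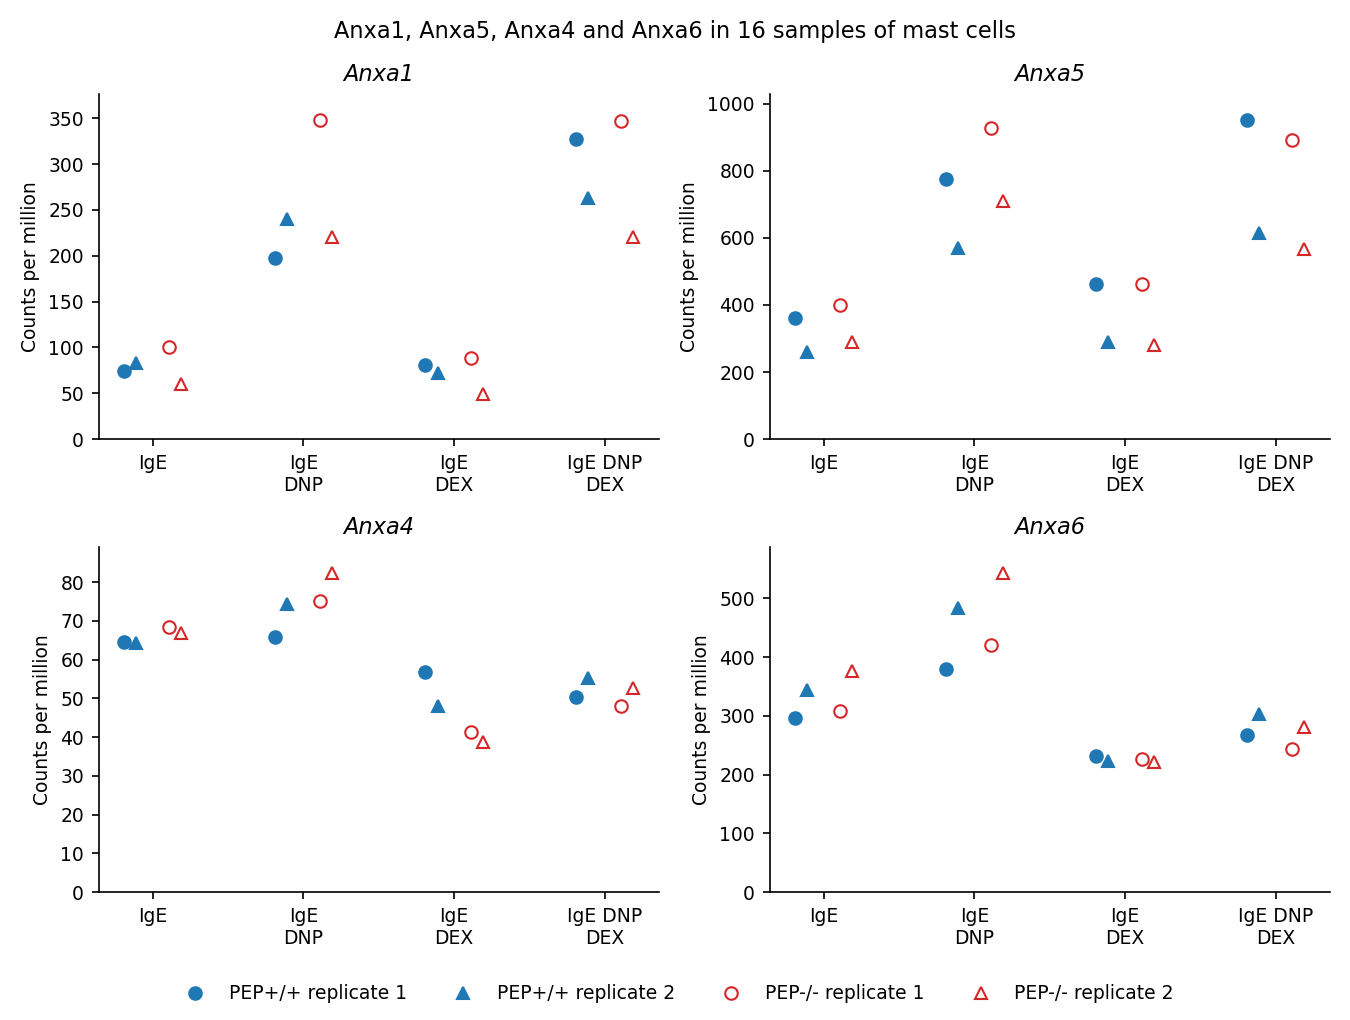
CPM of Anxa1, Anxa5, Anxa4 and Anxa6 in each sample, by treatment (horizontal), genotype (colour and fill) and replicate (circle or triangle). Anxa1 lies at 49.8 to 101 CPM in the 8 samples without DNP and at 198 to 348 in the 8 with it, and Anxa4 and Anxa6 are lower in the samples with DEX.

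DEX did not change Anxa1 detectably, in sensitized or in activated cells. Side by side, the 4 IgE samples had 60.5 to 101 CPM and the 4 IgE DEX samples 49.8 to 88.6, and the 4 IgE DNP samples had 198 to 348 CPM and the 4 IgE DNP DEX samples 221 to 347. Both pairs of ranges overlapped over most of their length. The change was -0.13 in sensitized cells (SE 0.24, 95% interval -0.66 to 0.41, edgeR adjusted p = 0.894) and 0.22 in activated cells (SE 0.24, -0.32 to 0.75, adjusted p = 0.685). On the linear scale these intervals span 0.632 to 1.33 and 0.802 to 1.68 times the level without DEX. With the replicate set as a block the changes were -0.13 (SE 0.17, edgeR adjusted p = 0.611) and 0.20 (SE 0.16, adjusted p = 0.386). Of 5 genes known as glucocorticoid targets, 4 were called higher with DEX in sensitized and 5 in activated cells, in the same libraries. Tsc22d3, which encodes the glucocorticoid-induced leucine zipper, went from a mean of 114 CPM (SD 22.7, n = 4) after IgE to 995 (SD 202, n = 4) after IgE DEX, a change of 3.13 (edgeR adjusted p = 1.64e-06). Fkbp5, a chaperone partner of the glucocorticoid receptor, rose by 3.26 (adjusted p = 4.98e-06), the clock gene Per1 by 2.64 (adjusted p = 5.95e-05) and the phosphatase gene Dusp1 by 4.78 (adjusted p = 2.32e-07). In activated cells the changes were 3.74 for Tsc22d3, 3.17 for Fkbp5, 1.61 for Per1 and 1.85 for Dusp1, each called, and Zfp36, which encodes an RNA-binding protein that destabilises cytokine transcripts, was called too (0.99, adjusted p = 0.0306). The receptor gene Nr3c1 gave -0.43 (adjusted p = 0.544) and -0.37 (adjusted p = 0.536). With the replicate set as a block it was called in sensitized cells (-0.41, adjusted p = 0.0293).

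**Figure D3:**
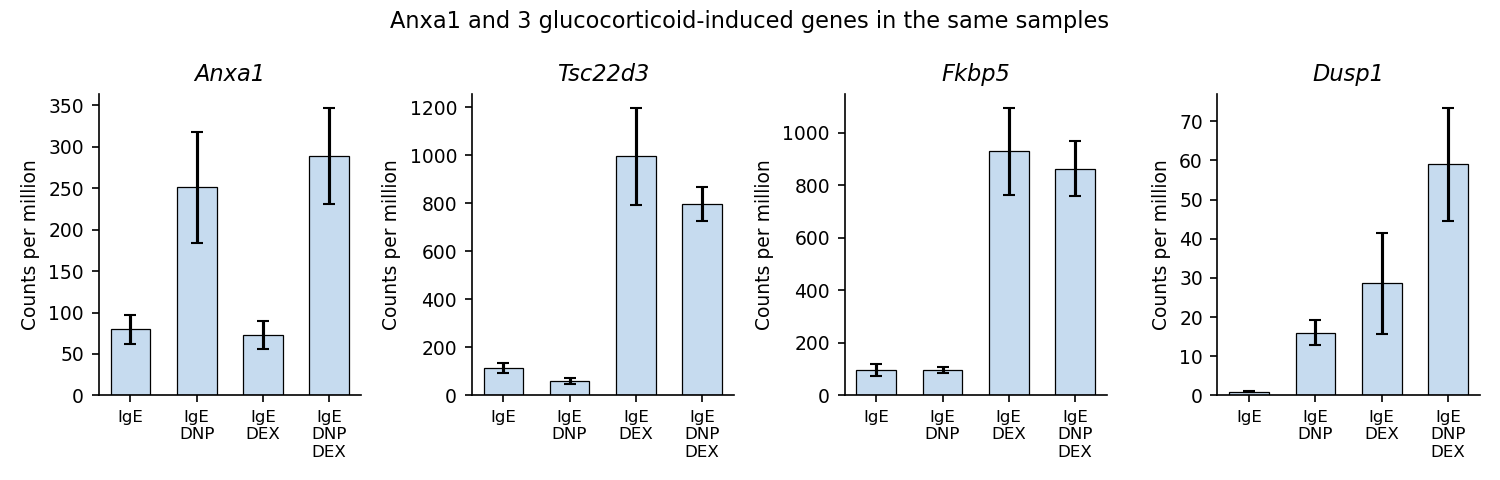
Mean CPM (bars, from 0) with SD (error bars) over the 4 samples of each treatment, both genotypes together, for Anxa1 and 3 genes that glucocorticoids are known to induce. Tsc22d3, Fkbp5 and Dusp1 are higher with DEX (Tsc22d3 from 114 to 995 CPM in sensitized cells), while Anxa1 has means of 79.7 and 73.1 CPM there.

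Anxa4 and Anxa6 were lower after DEX, with and without antigen. Anxa4 (chromosome 6, 86736840 to 86793584) encodes an annexin of secretory and plasma membranes. It had 64.5, 64.2, 68.3 and 66.9 CPM after IgE and 56.7, 48.1, 41.4 and 38.7 after IgE DEX (PEP+/+ replicates 1 and 2, then PEP-/-). In activated cells it had 65.7, 74.3, 75.2 and 82.3 CPM without and 50.4, 55.3, 47.9 and 52.6 CPM with DEX. Neither pair of groups overlapped. The change was -0.52 (SE 0.11, 95% interval -0.77 to -0.28, 1.44-fold lower, edgeR adjusted p = 0.0106) in sensitized and -0.53 (SE 0.11, -0.77 to -0.28, adjusted p = 0.0107) in activated cells. The first call was lost without PEP+/+ IgE DEX replicate 2 (-0.46, adjusted p = 0.0616) or PEP-/- IgE DEX replicate 2 (-0.50, adjusted p = 0.0531). The other was lost without PEP-/- IgE DNP DEX replicate 1 (-0.47, adjusted p = 0.055) or PEP-/- IgE DNP replicate 2 (-0.48, adjusted p = 0.0568).

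Anxa6 (chromosome 11, 54979108 to 55033445) was lower too. After IgE it had the 297 to 377 CPM given above, and after IgE DEX 232, 224, 226 and 222 CPM, the narrowest group of its 4. In activated cells it went from 379 to 543 CPM without DEX to 267, 304, 244 and 281 CPM with it. Again neither pair overlapped. The change was -0.55 (SE 0.14, 95% interval -0.86 to -0.25, 1.47-fold lower, edgeR adjusted p = 0.0291) in sensitized and -0.74 (SE 0.14, -1.04 to -0.43, 1.67-fold lower, adjusted p = 0.0063) in activated cells. The sensitized call was lost without any of the 8 libraries compared except PEP-/- IgE replicate 1 (-0.62 to -0.48 over the 16, adjusted p of up to 0.124). The activated call held without each library in turn (adjusted p of up to 0.0372). Anxa4 and Anxa6 were each lower in 4 of 4 same-numbered differences in both comparisons, and the block kept all 4 calls.

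With 2 of 8 members lower and 0 higher in each DEX comparison, the share of all genes was 3.98% lower and 5.4% higher in sensitized cells and 4.99% lower and 5.67% higher in activated cells. With the block the counts were again 2 lower and 0 higher, where 26.7% and 33.3% of all genes were called in either direction. The median change of the 8 members was -0.08 in sensitized and -0.17 in activated cells, against 0.00 and -0.01 for all genes. Of the other members, Anxa5 gave 0.19 (95% interval -0.37 to 0.76) and 0.03 (-0.54 to 0.59). Anxa7 gave -0.04 (-0.31 to 0.24) and -0.23 (-0.51 to 0.05), and Anxa11 0.26 (-0.52 to 1.03) and -0.11 (-0.88 to 0.66). These intervals are from the fit without the block, where the SE of Anxa5 was 0.26 in both comparisons. With the block it was 0.09 in both, and Anxa5 gave 0.17 (edgeR adjusted p = 0.198) and 0.00 (adjusted p = 0.976). Intervals were wider for Anxa2, with 0.41 (-0.64 to 1.46) and 0.01 (-1.01 to 1.03), and for Anxa3, with -1.22 (-2.49 to 0.04) and -0.44 (-1.67 to 0.80). In sensitized cells Anxa2 was lower with DEX in 3 of 4 same-numbered differences, and only PEP+/+ replicate 1 was higher (1.39 on the log2 scale). The DEX and DNP comparisons share samples (IgE, IgE DNP, IgE DEX or IgE DNP DEX each enter a pair of them), so their values are not independent of each other.

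Among the markers of other cells, Cd200r3, a receptor of basophils and also of mast cells, was lower with DEX as Anxa4 and Anxa6 were. Summed basophil markers had 539 to 623 CPM after IgE, 228 to 392 after IgE DEX, 750 to 882 after IgE DNP and 431 to 479 after IgE DNP DEX. Cd200r3 made up most of them (198 to 837 CPM) and fell with DEX by 1.12 and 0.94 on the log2 scale (adjusted p = 0.000188 and 0.000658). After antigen it rose by 0.50 without and 0.68 under DEX (adjusted p = 0.0168 and 0.00454). The basophil proteases Mcpt8 (8.03 to 62.8 CPM) and Prss34 (10.2 to 59.4 CPM) were not called with DEX (-0.16 and -0.21 for Mcpt8, 0.08 and 0.34 for Prss34). A part of basophils in the change of Anxa4 and Anxa6 was not tested.

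**Figure D4:**
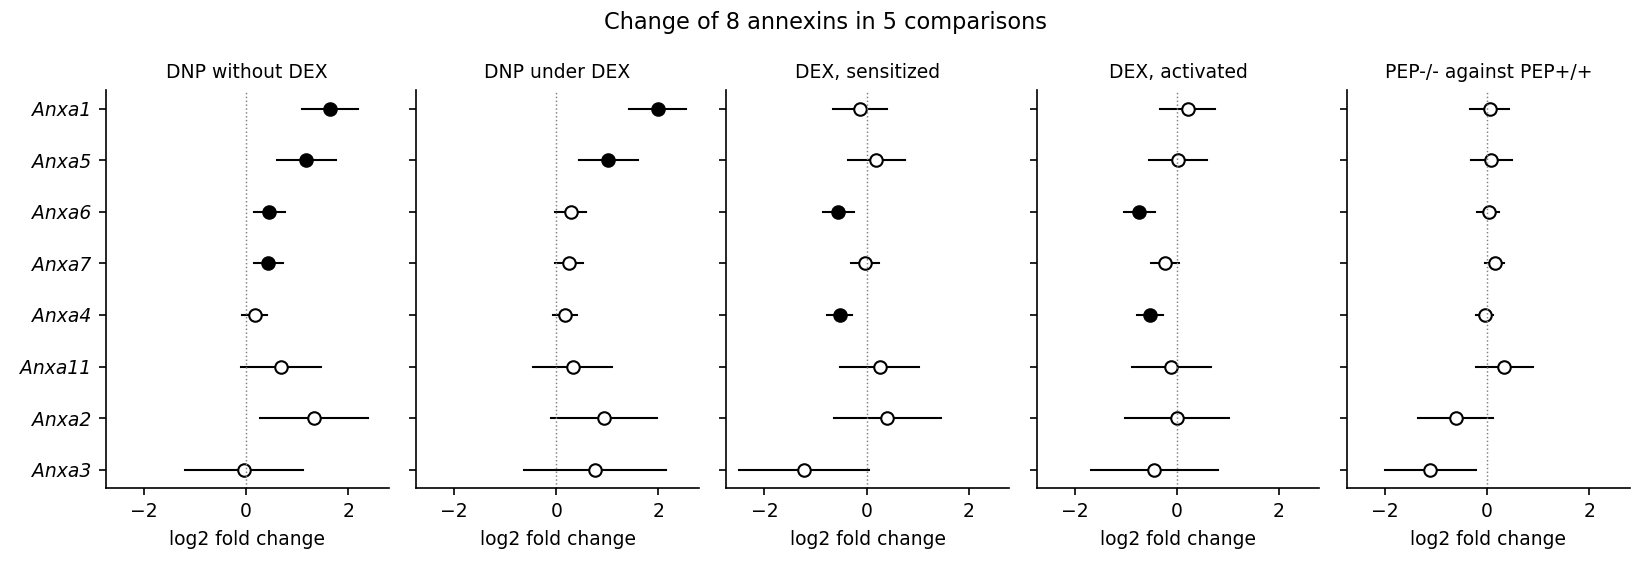
Log2 fold change (points) with 95% interval (lines) of each annexin in 5 comparisons, genotypes or treatments averaged, filled where the edgeR adjusted p was under 0.05. Anxa1 lies at 1.65 and 1.99 with DNP and near 0 with DEX, and Anxa4 and Anxa6 lie below 0 with DEX.

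Within single genotypes, Anxa4 was called lower with DEX in PEP-/- cells (-0.75, adjusted p = 0.0218 in sensitized and -0.65, adjusted p = 0.0469 in activated cells) and not in PEP+/+ cells (-0.30, adjusted p = 0.529 and -0.40, adjusted p = 0.231). Anxa6 was called in activated PEP-/- cells (-0.88, adjusted p = 0.0371), with -0.61 in sensitized PEP-/- cells (adjusted p = 0.151) and -0.49 and -0.60 in PEP+/+ cells (adjusted p = 0.296 and 0.154). Of all genes, 3.18% (PEP+/+) and 3.34% (PEP-/-) were called with DEX in sensitized and 3.03% and 3.28% in activated cells. These calls were not stable to single libraries: the sensitized Anxa4 call was lost without any of its 4 libraries (adjusted p of up to 0.179), the activated one without any of 14 of the 16 (up to 0.3) and that of Anxa6 without any of 11 (up to 0.3). With the block, Anxa6 was called in all 4 of these comparisons, and Anxa4 in 3, with sensitized PEP+/+ cells the exception (adjusted p = 0.145). The difference between genotypes was tested directly by the interaction. For Anxa4 the DEX change in PEP-/- minus that in PEP+/+ cells was -0.35 (95% interval -0.69 to -0.01, unadjusted p = 0.0443, edgeR adjusted p = 1), and for Anxa6 it was -0.20 (-0.63 to 0.23, adjusted p = 1).

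No member was called between the genotypes in the fit without a block. Averaged over the 4 treatments, 0 of 8 members were called between PEP-/- and PEP+/+ cells by edgeR, where 1.59% of all genes were called. At an unadjusted p under 0.05 there was 1 member (Anxa3), beside 1884 of the 13305 genes tested. DESeq2 called 0 members, beside 668 genes in all. Anxa1 differed by 0.05 (SE 0.17, 95% interval -0.33 to 0.43), so the interval reaches from 0.798 to 1.35 times the PEP+/+ level. Anxa4 (-0.05, -0.22 to 0.12), Anxa5 (0.08, -0.32 to 0.48), Anxa6 (0.03, -0.19 to 0.24) and Anxa7 (0.15, -0.05 to 0.34) gave intervals around 0 too. Anxa2 was at -0.61 (SE 0.33, adjusted p = 0.472) and Anxa11 at 0.34 (SE 0.25, adjusted p = 0.632). With the replicate set as a block, both were called, Anxa2 lower in PEP-/- (-0.59, adjusted p = 0.0329) and Anxa11 higher (0.34, adjusted p = 0.0161), where 17.4% of all genes were called. Anxa11 overlaps its antisense gene Anxa11os by 113 bases of exon and Anxa2 overlaps the antisense gene Gm16144 by 98, and whether the counting used strand is not given in the sources used here.

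Anxa3 was at -1.11 between genotypes (SE 0.41, adjusted p = 0.222). Its reads in PEP-/- samples were 3 and 15 after IgE, 5 and 10 after IgE DNP, 2 and 1 after IgE DEX and 1 and 3 after IgE DNP DEX. In PEP+/+ samples they were 5 and 8, 7 and 4, 9 and 9, and 10 and 7. The low values thus lay in the PEP-/- samples with DEX, and the interaction of genotype and DEX was -2.07 for Anxa3 (95% interval -3.84 to -0.29, unadjusted p = 0.0263, edgeR adjusted p = 1). Anxa3 rested on 1 to 15 reads a sample, and this difference was not called after adjustment. Of the 13305 genes tested, 0 were called in that interaction.

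No interaction was called for any member by edgeR or DESeq2. Of all genes 0.331% were called by edgeR for the interaction of DNP and DEX, 0% for genotype and DEX and 0% for genotype and DNP. At an unadjusted p under 0.05, 0, 2 (Anxa3 and Anxa4) and 0 members appeared, beside 485, 113 and 53 of the 13305 genes tested. With the replicate set as a block, edgeR called 209, 0 and 0 genes, and no member. A lack of calls here does not show that an interaction is absent. DESeq2 called 97, 0 and 0 genes. Within each treatment alone, the adjusted p between genotypes was 1 for each of the 8 members.

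**Figure D5:**
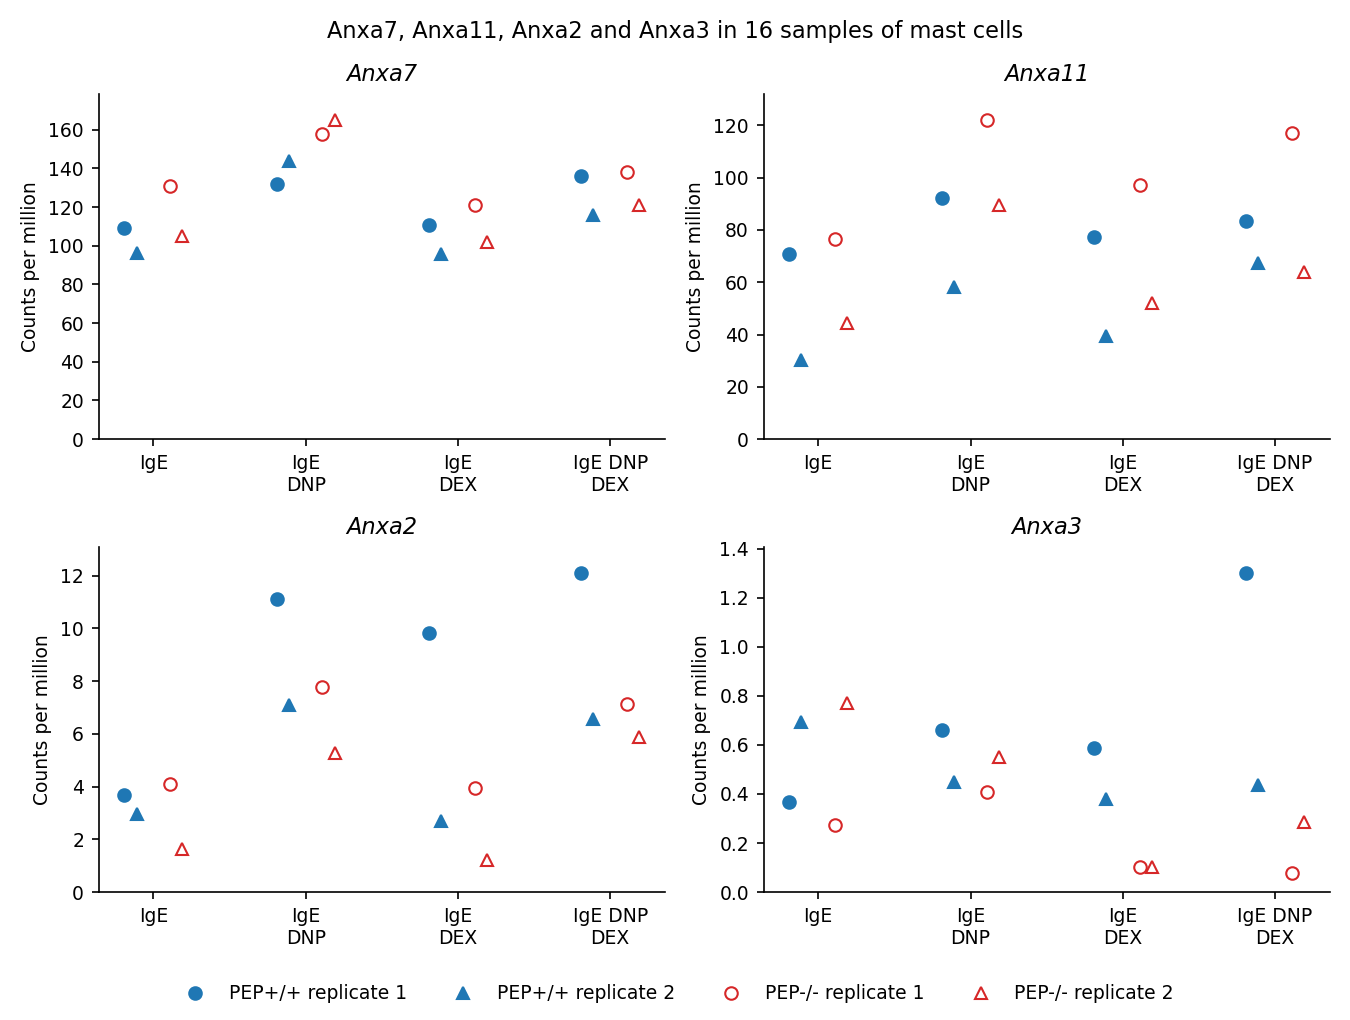
CPM of Anxa7, Anxa11, Anxa2 and Anxa3 in each sample, by treatment (horizontal), genotype (colour and fill) and replicate (circle or triangle). For Anxa2 and Anxa11 the circles (replicate 1) lie above the triangles in all 8 conditions, and Anxa3 stays at or below 1.3 CPM.

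The replicate sets stood apart for some annexins. Anxa2, Anxa5 and Anxa11 were higher in replicate 1 than in replicate 2 in 8 of 8 conditions, by a mean of 0.91, 0.55 and 0.77 on the log2 scale. Anxa6 was higher in replicate 2 in 6 of 8 conditions and Anxa4 in 4 of 8, with mean differences of -0.19 and -0.03. For Anxa1 the mean difference was 0.37, with replicate 1 higher in 6 of 8 conditions. The share of a sample's deposited counts outside annotated genes moved with the sets, at 4.69% to 7.177% in replicate 1 and 8.351% to 10.98% in replicate 2. What sets the replicates apart was not tested. The share of deposited counts for reads aligned to several places, which count on no gene, moved with DNP and with DEX. It was 21.45% to 25.56% after IgE and 24% to 31.52% after IgE DNP. With DEX it was 25.1% to 27.66% after IgE DEX and 30.3% to 37.76% after IgE DNP DEX. This share was higher with DNP in 8 of 8 same-numbered differences and with DEX in 7 of 8. Its part in the DNP and DEX changes of the annexins was not tested.

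Genes that act with annexins were taken as a list for their known binding, with earlier results of these data known. Of 7 binding partners, 4 rose with DNP without DEX, where 9.07% of all genes were called higher, 6 rose with DNP under DEX, where 7.19% were, and 0 fell in either. With the block the counts were 6 and 7, where 37.9% and 37.6% of all genes were called in either direction. Ahnak, a giant scaffold protein held by Anxa2 and S100a10, rose by 2.25 (edgeR adjusted p = 0.000269) and by 1.88 under DEX (adjusted p = 0.00123). S100a10, the partner of Anxa2, had 263 to 347 CPM after IgE and 326 to 573 after IgE DNP, ranges that overlapped, and rose by 0.60 (adjusted p = 0.035) and by 0.97 under DEX (adjusted p = 0.00391). S100a11, a partner of Anxa1, rose by 0.88 (adjusted p = 0.00834) and 1.17 (adjusted p = 0.00227). Pdcd6, the partner of Anxa11 and Anxa7, rose by 0.49 (adjusted p = 0.0162) and 0.53 (adjusted p = 0.015). S100a6 and S100a4, further S100 calcium sensors, were called under DEX (1.05 and 1.95) and gave 0.60 (adjusted p = 0.202) and 1.06 (adjusted p = 0.0915) without it. With the block S100a4 was called without DEX too (1.09, adjusted p = 0.00714). Sri, which binds Anxa7, gave 0.24 (adjusted p = 0.143) and 0.27 (adjusted p = 0.113), and was called in both with the block (adjusted p = 0.0306 and 0.0192). The median change of the 7 was 0.60 and 1.05, and the interaction of DNP and DEX was called for 0 of them (0 at an unadjusted p under 0.05, 0 by DESeq2).

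With DEX, 0 of the 7 partners were called in sensitized or in activated cells by edgeR or DESeq2. Of the 13305 genes tested, edgeR called 1247 and 1418 in these comparisons. At an unadjusted p under 0.05 there were 1 and 0 partners, beside 2578 and 3180 of all genes tested. A difference of the partners from all genes was not tested. With the block S100a11 was lower in sensitized cells (-0.52, adjusted p = 0.0143). Of the 5 genes of the Anxa1 pathway, 2 passed the filter: Pla2g4a, the cytosolic phospholipase A2 that annexin A1 was named for inhibiting, and Trpm7, a channel kinase that phosphorylates annexin A1. Pla2g4a gave 0.03 and -0.12 with DEX, and -0.52 (adjusted p = 0.429) and -0.67 (adjusted p = 0.281) with DNP. With the block both DNP values passed (adjusted p = 0.000638 and 0.000121). Trpm7 gave 0.67 (adjusted p = 0.122) and 0.42 (adjusted p = 0.324) with DEX, and with the block 0.68 (adjusted p = 0.00161) and 0.46 (adjusted p = 0.0177). Elane and Prtn3, proteases that cleave annexin A1, had at most 2 and 19 reads in a sample, and Egfr at most 3.

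The genes whose level followed Anxa1 most closely over the 16 samples, by Pearson correlation of log2 CPM, were Tpst2 (r = 0.968), Tnfaip8 (0.965), Fem1b (0.961), Map3k11 (0.959) and Irf2bpl (0.959). These points share libraries and depth, and all 5 were higher with DNP, at 1.01 to 1.70 on the log2 scale without DEX. Of these 5, 0 were among the first 5 when the 8 condition means or either replicate set alone was used, so membership of the list did not hold. Among the annexins, Anxa5 was most like Anxa1 (r = 0.93 over the 16 samples), then Anxa2 and Anxa7 (0.78 each) and Anxa11 (0.61), and Anxa6 (0.38), Anxa4 (0.27) and Anxa3 (0.15) were least like it.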

How the data were processed

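RNA of 16 BMMC samples was sequenced by the authors from stranded mRNA libraries, aligned with TopHat2 to GRCm38 and counted on Ensembl genes with HTSeq. The authors deposited raw counts per gene, as whole numbers, with 5 rows for reads not assigned to a gene. These rows held 29.05% to 49.62% of a sample's deposited counts (genes and these rows, which list no unaligned reads) and were left out. Reads that aligned to several places counted on no gene. Tables were taken as deposited.

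TMM-scaled counts entered the quasi-likelihood test of edgeR 4.0.16 (R 4.3.3) over 13305 genes kept by filterByExpr (minimum count 10), with all 16 samples, 8 condition means and 8 residual degrees of freedom. A gene was called at a Benjamini-Hochberg adjusted p under 0.05 over all genes tested. CPM and RPKM used TMM library sizes, and exon lengths, positions and symbols came from a GENCODE annotation of GRCm38, with promoter windows from RefSeq. Correlations used a prior count of 2.

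Samples were grouped by their labels, which number 1 replicate of each condition (replicate 1) and letter the other (replicate 2). Replicate differences correlated in all 28 pairs of conditions (lowest r 0.453, median 0.718, highest 0.799), so the replicate set was taken to pair the samples and used as a block beside the main fit. Members and lists were chosen with earlier results of these data known; the text names all 10 members, the counts of each list, and list genes called with DEX, while list genes beyond that rule were named after their values were seen. Alternatives were DESeq2 1.42.0, its size factors in edgeR, other filters, only the conditions compared, a minimum absolute log2 change of 1, and each sample left out.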

Additional observations from a re-analysis of the deposited data

How the results depend on the processing

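Called changes kept their direction under all alternatives run. Anxa1 stayed called with DNP, without and under DEX, under all 22 alternatives, at 1.45 to 1.86 and 1.81 to 2.22 on the log2 scale, while its calls within 1 genotype did not all hold. With no filter on low counts, 0 members were called with DEX in sensitized and 1 in activated cells, in place of 2 each, and the DNP calls of Anxa6 (0.45, adjusted p = 0.178) and Anxa7 (0.44, adjusted p = 0.201) without DEX were lost while Anxa2 and Anxa11 were called, so that count stayed at 4. With only the conditions compared in the fit, 1 and 0 were called with DEX, 2 with DNP without DEX and 1 with DNP under DEX. Requiring a log2 change of at least 1 left 0 and 0 with DEX and 2 with DNP without DEX, since Anxa4, Anxa6 and Anxa7 changed by less. With the replicate block, 6 were called with DNP under DEX and 2 between genotypes, and calls within 1 genotype or 1 treatment went from 7 to 24 (1 with only the conditions compared). The block ended no call of a member and added none in an interaction. Beyond the fewer samples or the size threshold that these settings set, the cause of such shifts was not tested. Without each sample in turn the count was 0 to 2 and 1 to 2 with DEX (sensitized, activated), 1 to 4 and 1 to 2 with DNP (without and under DEX), and 3 to 7 within 1 genotype or 1 treatment; counts between genotypes and for interactions stayed at 0. In all, 12 values that were not called changed sign in some of these refits, none of them past the threshold: with DEX in sensitized cells Anxa7 (-0.11 to 0.06), Anxa2 (-0.19 to 0.80), Anxa11 (-0.02 to 0.63), Anxa1 (-0.36 to 0.09) and Anxa5 (-0.01 to 0.35), with DEX in activated cells Anxa11 (-0.34 to 0.09), Anxa2 (-0.22 to 0.22) and Anxa5 (-0.14 to 0.19), between genotypes Anxa6 (-0.02 to 0.07), Anxa1 (-0.07 to 0.14) and Anxa5 (-0.02 to 0.17), with DNP without DEX Anxa3 (-0.28 to 0.45). Over all genes, the number called was 1247 and 1418 with DEX (sensitized, activated), 2216 and 1678 with DNP (without, under DEX), 212 between genotypes and 44 for the interaction of DNP and DEX. With the block these became 3548, 4429, 5042, 5007, 2310 and 209. A log2 change of at least 1 gave 764, 767, 1165, 788 and 49 for the first 5. DESeq2 gave 668 between genotypes and 97 for the interaction, no filter gave 472 and 107, and only the conditions compared gave 805 with DEX in activated cells and 953 with DNP under DEX. Leaving out 1 sample lowered the count to as few as 852 with DEX in activated cells, 1390 and 927 with DNP, 57 between genotypes and 12 for the interaction. For the levels per length, the longest transcript in place of the union of exons moved 6 of 8 medians by more than their spread, upward, and kept the order. Of the 5 genes most like Anxa1, 0 were shared with each of the 3 alternatives. By Dixon's gap rule, no sample stood apart in the 32 sets of 4 samples looked at for the 8 members. Each set mixed both genotypes and both replicate sets, so the rule could flag only a very large gap. Anxa2 in PEP+/+ IgE DEX replicate 1, at 9.84 CPM against 1.22 to 3.94 in the other IgE DEX samples, was not flagged. Precision is limited by 2 replicates a condition, and for Anxa2, Anxa3 and the receptors by depth. Leaving out 1 sample leaves its condition with 1 sample, which is assumed to vary like the others. The refits without each sample did not use the block.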
